A study of Mus musculus with 3 samples.

Results

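Genes whose products bind or sort amyloid precursor protein (APP), 10 in number, were examined in ribosome-associated RNA of cardiac endothelial cells. They are the FE65 adaptor genes Apbb1, Apbb2 and Apbb3, the X11 adaptor genes Apba1 and Apba3, the transport adaptor gene Appbp2, the BRI genes Itm2b and Itm2c, the sorting receptor gene Sorl1 and the endocytic adaptor gene Dab2. Members were taken by gene symbol, and all 10 were found among the 17583 genes of the deposited table. App, Aplp2 and Aplp1, which encode the 3 APP family proteins, served as the references.

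The RNA came from hearts of 3 EC-RiboTag mice of the genotype Cdh5-CreERT2;Rpl22tm1.1Psam on a C57BL/6 background, in which tamoxifen induced Cre; the labels give no age. The Cdh5 promoter restricts Cre to endothelial cells, lymphatic ones included, where it switches on a hemagglutinin-tagged ribosomal protein RPL22, and tagged ribosomes were pulled down from heart homogenate. The sample labels state that the hearts were taken 7 days after coronary ligation, whereas the description of the RiboTag procedure in the methods names no infarction, and the titles carry an abbreviation, Rz, that no label explains. Elsewhere in the study RZ stands for the remote zone of infarcted hearts. In another experiment the paper took endothelial ribosome-associated RNA from this zone of EC-RiboTag hearts, 7 days after infarction. The paper also sequenced endothelial ribosome-associated RNA of EC-RiboTag hearts (n = 3), in a legend that names no infarction. The values here may be of the remote zone or of whole hearts, and the sources differ on infarction. All 3 libraries belong to a single condition without input or control, so values are levels within the immunoprecipitate.

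APP is a transmembrane protein with a short cytoplasmic tail. FE65 and X11 proteins and DAB2 dock with their phosphotyrosine-binding domains on an Asn-Pro-x-Tyr signal in this tail and couple it to gene regulation, trafficking and clathrin-mediated uptake. SORL1 keeps APP in the Golgi and early endosomes, and the BRI proteins bind APP and hinder its cleavage by secretases.

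The docking signal is shown for the 3 references because it is what the adaptors have in common as a target. In the Ensembl canonical transcript of each gene, the codons for Asn-Pro-Thr-Tyr occurred once, in the last of 17 exons. The coding strand is printed 5′ to 3′ with these codons in capitals and with 8 codons before them. Up to 8 codons follow, which reach the stop codon in each gene.
App, chr16:84752222-84752281 (GRCm39, minus strand): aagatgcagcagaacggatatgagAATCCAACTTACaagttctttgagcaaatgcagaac
Aplp2, chr9:31062170-31062229 (GRCm39, minus strand): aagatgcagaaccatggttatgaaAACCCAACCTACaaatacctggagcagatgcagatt
Aplp1, chr7:30134721-30134777 (GRCm39, minus strand): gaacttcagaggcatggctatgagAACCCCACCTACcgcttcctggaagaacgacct
App and Aplp2 shared 45 of 60 bases (75.0%) in this stretch, App and Aplp1 33 of 57 (57.9%), and Aplp2 and Aplp1 36 of 57 (63.2%). Within the 12 capital bases, App shared 10 with Aplp2 and 9 with Aplp1.

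Itm2b and Itm2c are shown around the Lys-Arg codon pair nearest to the stop codon. They were the members with the highest levels per kilobase, and BRI proteins are cut by furin after such a pair. In both genes the stretch spans the junction of exons 5 and 6 of 6, and the coordinates include the intron between them. The pair is in capitals.
Itm2b, chr14:73600546-73601997 (GRCm39, minus strand): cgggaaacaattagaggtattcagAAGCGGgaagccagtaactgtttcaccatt
Itm2c, chr1:85834864-85835305 (GRCm39, plus strand): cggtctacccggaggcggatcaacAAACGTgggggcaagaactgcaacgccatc
They shared 29 of 54 bases (53.7%). After the pair, 23 codons remained in Itm2b, which has 266 codons, and 25 in Itm2c, which has 269.

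The depth estimated from the worth of 1 read was 6753000 to 7564000 reads per library, and each pair of libraries differed by 5.48 to 8.31 times the squared deviation that counting alone gives. All 6 endothelial markers were present, with a median of 690.3 normalized counts per kilobase (kb) of canonical transcript. The 5 cardiomyocyte markers, led by Tnnt2, were also present with a median of 575.1 per kb, and the medians of 5 fibroblast, 5 leukocyte and 5 mural markers were 79.9, 28.5 and 46.0 per kb. The summed level of the cardiomyocyte markers lay between 2470.7 and 2496.5 per kb in the 3 mice, that of the fibroblast markers between 377.2 and 550.3, and that of the leukocyte markers between 124.3 and 183.5. The 5 lymphatic markers had a median of 59.0 per kb and summed levels of 496.5, 613.6 and 720.4 per kb in mice 1, 2 and 3, and 3 of them had a coefficient of variation over 20%. Some markers, such as Tnnt2 (769.1 per kb) and Pecam1 (746.5 per kb), lie near a limit set by removal of duplicate reads, described below. The medians of endothelial and cardiomyocyte markers therefore do not give the share of each RNA. The paper checked markers by qRT-PCR in immunoprecipitate against input, which these libraries do not include. The part of the cells other than blood endothelium in the levels of the 10 genes was not tested. In such a pool more cells with a transcript and more ribosome-bound RNA per cell cannot be told apart.

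A normalized count is a read count divided by a size factor of its library. Among the 10 genes, 8 had a mean of at least 200 normalized counts, against 53.2% of all listed genes. Apbb3 and Sorl1 were below this level. Because longer RNAs give more reads, levels were compared between genes per kb of the canonical transcript, and values by the length of all annotated exons or without length are given where they change a comparison. The median of the 10 genes was 180.4 per kb, above that of all genes with a length (73.0 per kb) and close to that of genes with a mean of at least 200 (176.3 per kb). Their levels spanned a 172-fold range, from Itm2b to Sorl1.

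**Figure D1:**
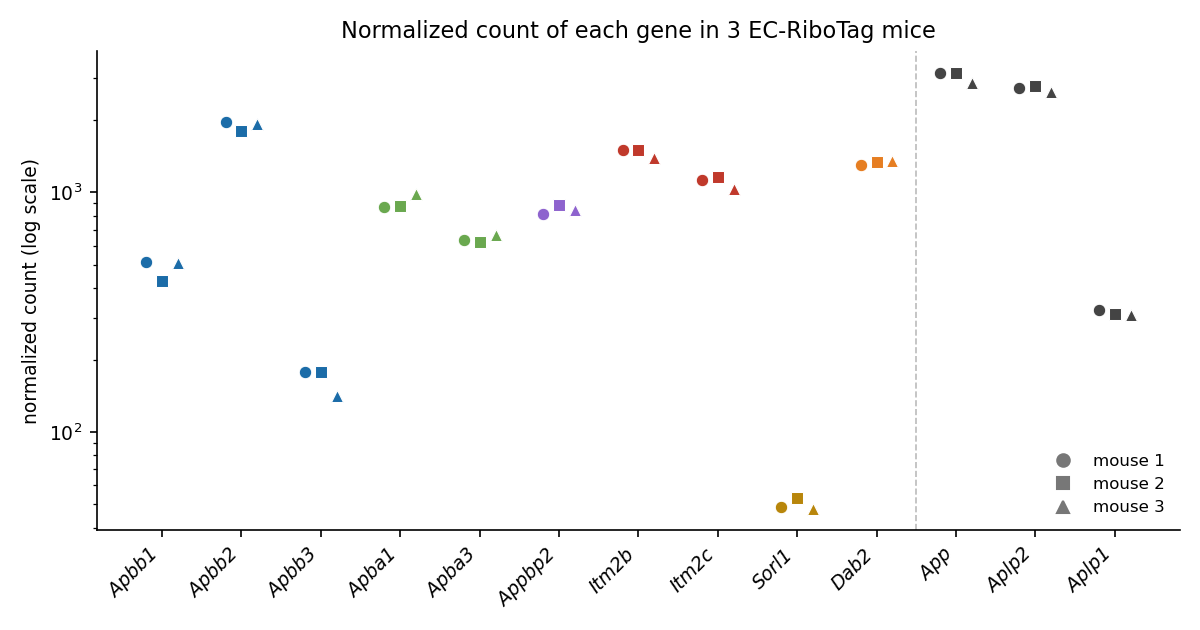
Normalized count (log scale) of the 10 genes and, right of the dashed line, of App, Aplp2 and Aplp1. Each symbol is 1 mouse (circle, mouse 1; square, mouse 2; triangle, mouse 3) and colours mark the gene group; the 3 mice lie close together for every gene, and Sorl1, with 48 to 53, is the lowest.

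The BRI genes were the highest per kb. Itm2b (ENSMUSG00000022108, chromosome 14 of GRCm39, 73599666 to 73622729, minus strand) encodes BRI2, a type II transmembrane protein that is mutated in familial British and Danish dementia. Its normalized counts were 1495, 1503 and 1390 in mice 1, 2 and 3, with mouse 3 the lowest, and its mean was 1462.7 ± 63.1 (SD, n = 3). Per kb of its transcript of 1825 bases, Itm2b had a level of 801.5 ± 34.6 (SD, n = 3) and ranked 55 of 17475 genes. Itm2c (ENSMUSG00000026223, chromosome 1, 85822002 to 85836396, plus strand), which encodes the related BRI3, had 1123, 1158 and 1032 normalized counts. It was also lowest in mouse 3, with a mean of 1104.3 ± 65.0, and per kb it had 458.8 ± 27.0 (SD, n = 3; rank 743).

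Itm2b exceeded Itm2c per kb in each of the 3 mice, by log2 ratios of 0.81, 0.78 and 0.83 (mean 0.81 ± 0.03, SD, n = 3), or 1.75-fold. By a two-sided exact test that flips the signs of the ratios, p was 0.25, and a design of 3 mice cannot give a lower p. The order depends on the length used. Per kb of all annotated exons, which add up to 5403 bases for Itm2b and 2800 for Itm2c, Itm2b had 270.7 and Itm2c 394.4, and the log2 ratio turned to -0.54. Without any length it was 0.41. Of the summed level per kb of the 3 BRI genes, Itm2b had 55.9% ± 0.6, Itm2c 32.0% ± 0.6 and Itm2a, which is no member, 12.1% ± 1.1 (SD, n = 3). By the length of all exons the shares of Itm2b and Itm2c were 37.8% and 55.0%.

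Itm2b and Aplp2 came near the limit that removal of duplicate reads sets. Identical read starts were kept once, so a transcript can give about 1 read per base, and Itm2b reached 0.801 and Aplp2 0.73 normalized counts per base. Only 132 genes exceeded 0.7 per base. When the values were corrected for 1 read per start position, Itm2b had 1628.2 per kb and Itm2c 614.5, and their log2 ratio was 1.40. Aplp2 had 1313.5 per kb with this correction and 730.1 without it. Over all annotated exons Itm2b had 0.271 per base, which is away from the limit only if these exons are transcribed. The exons in use were not tested.

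Per kb of canonical transcript, the endocytic adaptor Dab2 came next. Dab2 (ENSMUSG00000022150, chromosome 15, 6329269 to 6470193, plus strand) encodes a clathrin adaptor that recruits receptors with Asn-Pro-x-Tyr signals and takes part in VEGF receptor uptake in endothelium. It had 1296, 1344 and 1355 normalized counts, with the 3 mice within a narrow range. The mean was 1331.7 ± 31.4 (SD, n = 3), a coefficient of variation of 2.36%. Counting of independent reads gives 2.74%, without allowance for the limit of 1 read per start position. Per kb Dab2 had 285.6 ± 6.7 (SD, n = 3) and ranked 2433. By the length of all exons it had 121.4 per kb, below Apba1 (127.9), Apba3 (125.1), Apbb2 (123.8) and Appbp2 (122.6). Without length Apbb2, with a mean of 1904, was above Dab2.

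The FE65 genes differed from each other in level. Apbb2 (ENSMUSG00000029207, chromosome 5, 66456046 to 66776127, minus strand) encodes FE65-like 1 and was the highest of them, with 1970, 1809 and 1933 normalized counts (mean 1904 ± 84.3, SD, n = 3). Per kb it had 276.6 ± 12.3 and was not separable from Dab2, since the difference of 9.0 was below the larger SD and 2 of 3 mice had this order. Apbb1 (ENSMUSG00000037032, chromosome 7, 105207690 to 105230860, minus strand), which encodes FE65 itself and is known for its role in neurons, had 511, 428 and 507, with mouse 2 the lowest. Its mean was 482.0 ± 46.8, and per kb it had 165.4 ± 16.1 (SD, n = 3).

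Apbb3 (ENSMUSG00000117679, chromosome 18, 36804207 to 36812419, minus strand), the third gene of the family, had 178, 178 and 142 normalized counts, with mouse 3 below the others. The mean of 166.0 ± 20.8 gave 75.4 ± 9.4 per kb (SD, n = 3), close to the median of all genes. Its coefficient of variation of 12.5% was the largest among the 10 genes, with 7.76% given by counting.

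Per kb, Apbb2 exceeded Apbb1 by a log2 ratio of 0.74 ± 0.08 and Apbb3 by 1.88 ± 0.22, and Apbb1 exceeded Apbb3 by 1.13 ± 0.28 (SD, n = 3). Each order held in 3 of 3 mice (p = 0.25 for each in the same exact test) and under each length. Apbb2 thus made up 53.5% ± 0.7 of the summed level of the FE65 genes per kb, Apbb1 31.9% ± 1.8 and Apbb3 14.6% ± 2.1 (SD, n = 3).

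Both X11 genes were present at moderate levels. Apba1 (ENSMUSG00000024897, chromosome 19, 23736251 to 23926960, plus strand) encodes X11-alpha, a scaffold best known from synapses. It had 868, 878 and 984 normalized counts, with mouse 3 above the others (mean 910.0 ± 64.3, SD, n = 3). Apba3 (ENSMUSG00000004931, chromosome 10, 81102794 to 81109080, plus strand), which encodes the widely expressed X11-gamma, had 634, 622 and 666 (mean 640.7 ± 22.7). Per kb the order was the other way round, with 195.3 ± 6.9 for Apba3 and 133.4 ± 9.4 for Apba1 (SD, n = 3).

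The log2 ratio of Apba3 to Apba1 per kb was 0.55 ± 0.06 (SD, n = 3) and positive in 3 of 3 mice (p = 0.25 in the exact test). Per kb of all exons it was -0.03, so the order of the X11 genes was not settled. Apba2, the remaining X11 gene and no member, had 71, 67 and 105 normalized counts and 5.5% ± 1.1 of the summed level of the X11 genes per kb. Beside these genes with neuronal roles, 4 of 5 neural and Schwann cell markers were listed, with a summed level of 12.9, 16.7 and 25.3 per kb in mice 1, 2 and 3. Of the neuronal markers among them, Snap25 was not listed and Tubb3 had 8, 20 and 45 normalized counts, highest in mouse 3 as was Apba1. The part of neural cells in the level of Apba1 was not tested.

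Appbp2 (ENSMUSG00000018481, chromosome 11, 85078088 to 85125956, minus strand) encodes a protein that binds the sorting signal of APP, associates with microtubules and serves as a substrate receptor of a cullin 2 ubiquitin ligase. It had 810, 887 and 847 normalized counts, with mouse 1 the lowest (mean 848.0 ± 38.5, SD, n = 3). Per kb it had 131.1 ± 6.0 and was separated from neither Apba1 nor Aplp1 by more than the larger SD. By the length of all exons Appbp2 had 122.6 per kb and Aplp1 62.5.

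Sorl1 was the lowest of the 10 genes by a wide margin. Sorl1 (ENSMUSG00000049313, chromosome 9, 41876016 to 42035593, minus strand) encodes a large sorting receptor with a VPS10 domain that hands APP to retromer. It had 49, 53 and 48 normalized counts, which is about 50 reads in each library. The mean of 50.0 ± 2.6 (SD, n = 3) over a transcript of 10743 bases gave 4.65 ± 0.25 per kb, and 85.1% of genes had a higher level. Its coefficient of variation of 5.29% was below the 14.1% that counting alone gives, so the spread between mice could not be resolved at this depth.

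**Figure D2:**
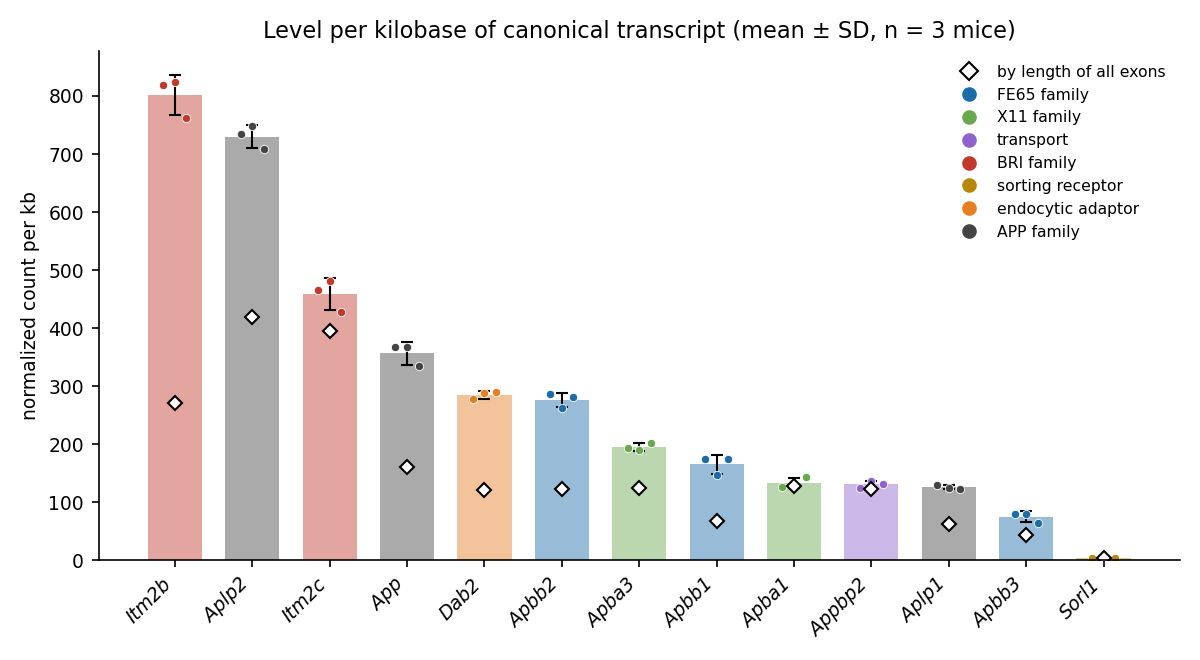
Normalized count per kb of canonical transcript, ordered by mean. Bars are means, error bars SDs and points the 3 mice, and open diamonds give the mean per kb of all annotated exons; Itm2b is first by canonical length with 801.5, whereas by all exons Aplp2 and Itm2c are the highest.

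By canonical length, 9 of 12 neighbours in the order of the 10 genes and 3 references lay further apart than their larger SD. The exceptions were Dab2 and Apbb2, Apba1 and Appbp2, and Appbp2 and Aplp1. These SDs do not cover the choice of length. By the length of all exons Apbb2, Dab2, Apba1, Apba3 and Appbp2 lay between 121.4 and 127.9 per kb, and Apbb1 at 68.8.

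**Figure D3:**
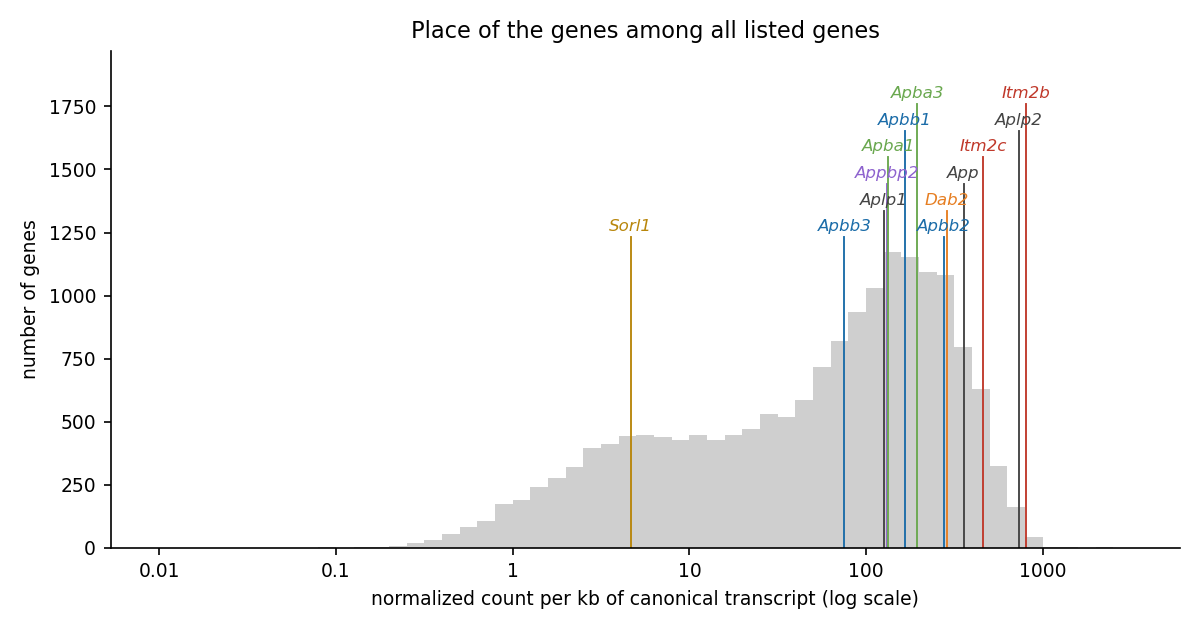
Histogram of the mean normalized count per kb (log scale) over all listed genes with a length, with a vertical line for each of the 13 genes. Itm2b and Aplp2 stand in the upper tail, Apbb3 near the median of 73.0, and Sorl1 at 4.65 in the lower part.

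The levels were then set against those of App, Aplp2 and Aplp1 within each mouse. App (ENSMUSG00000022892) had 3152, 3159 and 2867 normalized counts, or 356.5 ± 19.4 per kb (SD, n = 3). Aplp2 (ENSMUSG00000031996) had 2717, 2771 and 2621, or 730.1 ± 20.5 per kb, and Aplp1 (ENSMUSG00000006651) had 324, 312 and 308, or 126.5 ± 3.4 per kb. The paper describes APLP1 as limited to the nervous system, and the part of neural cells in the level of Aplp1 was not tested. Of the 30 log2 ratios of a member to a reference, 28 had the same sign in every mouse (p = 0.25 in the exact test, Benjamini-Hochberg adjusted p = 0.268). The other 2, Apba1 and Appbp2 to Aplp1, had mean log2 ratios of 0.07 ± 0.13 and 0.05 ± 0.10 with 2 of 3 mice above 0 (p = 0.5 in the exact test, adjusted p = 0.5).

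Itm2b and Itm2c were the 2 members above App per kb, a level that 8.77% of all genes exceeded. Itm2b was above App by log2 ratios of 1.16, 1.16 and 1.19 (mean 1.17 ± 0.02, SD, n = 3), or 2.25-fold, and Itm2c by 0.35, 0.39 and 0.36 (mean 0.36 ± 0.02), or 1.29-fold. The ratio of Itm2b to App varied less between mice than either gene alone, as App was lowest in mouse 3 too. Counting of independent reads gives coefficients of variation of 2.61% for Itm2b and 1.81% for App, so by this measure a spread this small could not be resolved. The limit of 1 read per start position lowers both values and was not allowed for. Whether both genes vary together was not tested. All other members were below App. Dab2 had a log2 ratio of -0.32 ± 0.10 to App, Apbb2 -0.37 ± 0.12, Apba3 -0.87 ± 0.13, Apbb1 -1.11 ± 0.20, Apba1 -1.42 ± 0.18, Appbp2 -1.44 ± 0.10 and Apbb3 -2.24 ± 0.11 (SD, n = 3). Sorl1 was 75.8-fold below App, with a log2 ratio of -6.24 ± 0.06.

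These comparisons rest on the length taken for App. Its canonical transcript has 8582 bases, of which 4755 lie beyond a proximal 3′ end that 9 annotated transcripts share within 10 bases, none of them classed as protein coding. With App taken to this end, a length chosen after seeing the data, App had 799.4 per kb. The log2 ratio of Itm2b to App was then 0.00, and that of Itm2c was -0.80. Without any length, none of the 10 genes reached App, and the highest was Apbb2 with a log2 ratio of -0.68. Per kb of all exons the ratios of Itm2b and Itm2c were 0.75 and 1.30, and those of Apba1, Appbp2 and Sorl1 moved to -0.33, -0.39 and -5.29. The correction for 1 read per start position moved that of Itm2b to 1.88. Dab2, the FE65 genes, the X11 genes, Appbp2 and Sorl1 were below App in each of these settings.

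Only Itm2b was above Aplp2 per kb, by a log2 ratio of 0.13 ± 0.03 (SD, n = 3) that was positive in 3 of 3 mice, while 0.567% of all genes exceeded Aplp2. By the length of all exons it was -0.63. Itm2c had a log2 ratio of -0.67 ± 0.05 to Aplp2, Dab2 -1.35 ± 0.06, Apbb2 -1.40 ± 0.10 and Apba3 -1.90 ± 0.09. The remaining 5 genes lay between -2.15 ± 0.18 for Apbb1 and -7.28 ± 0.04 for Sorl1 (SD, n = 3). With the correction for 1 read per start position, which raises Aplp2, the 8 genes other than the BRI genes were further below it, from -1.96 for Dab2 to -8.12 for Sorl1. By the length of all exons Apba1, Appbp2 and Sorl1 had -1.71, -1.77 and -6.67.

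Relative to Aplp1, 8 of the 10 genes were higher per kb, against 36.8% of all genes. Itm2b was 6.33-fold and Itm2c 3.62-fold higher, Dab2 2.26-fold and Apbb2 2.18-fold. Apba3 had a log2 ratio of 0.63 ± 0.08 and Apbb1 of 0.38 ± 0.14. Apbb3 and Sorl1 were lower than Aplp1, with log2 ratios of -0.75 ± 0.16 and -4.75 ± 0.09 (SD, n = 3). Several of these ratios depended on length. Apba1 and Appbp2, close to Aplp1 by canonical length, had log2 ratios of 1.03 and 0.97 by the length of all exons and 1.53 and 1.43 without length, with the same sign in every mouse (p = 0.25 in the exact test). By all exons Apbb1 had 0.13 (p = 0.5 in the exact test), Itm2c 2.65 and Sorl1 -3.93. Without length Sorl1 had -2.64, and with the correction for 1 read per start position Itm2b had 3.58.

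**Figure D4:**
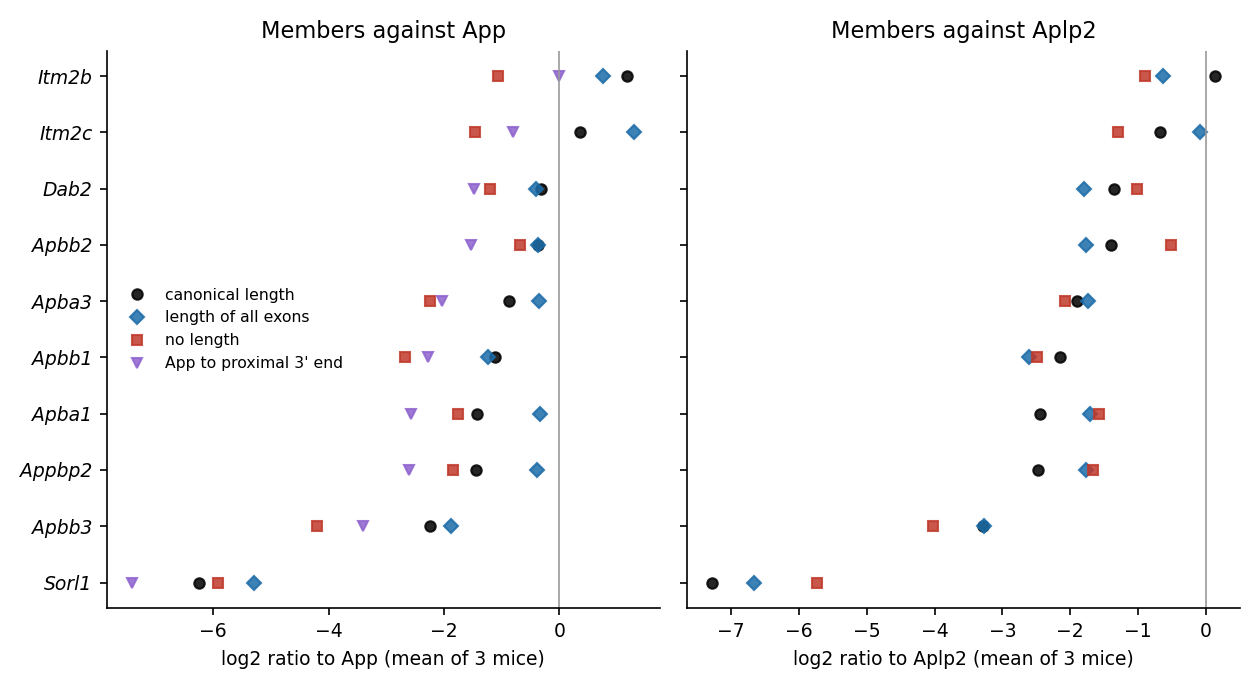
Log2 ratio of each member to App (left) and to Aplp2 (right), mean of 3 mice, under different gene lengths (symbols); the vertical line marks equal levels. The points of Itm2b and Itm2c lie on both sides of the line against App, and those of the other 8 genes lie below it.

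The 8 members that reached 200 on average had a median coefficient of variation of 4.49%, against 7.37% for all 9358 genes that did so. These sets were not matched by level, and counting error falls as the count rises. Of the 8 members, 0 exceeded 20%. Since 8.0% of all such genes did, this count of 0 is near the share over all genes. Among the 10 genes, 3, namely Apba3, Dab2 and Sorl1, varied less than counting of independent reads gives. For Apba3 (0.195 normalized counts per base) and Dab2 (0.286), the limit of 1 read per start position lowers that value, which was not computed. No mouse was highest throughout, since 3 genes were highest in mouse 1, 4 in mouse 2 and 3 in mouse 3, counting the tie of Apbb3 under mouse 1.

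**Figure D5:**
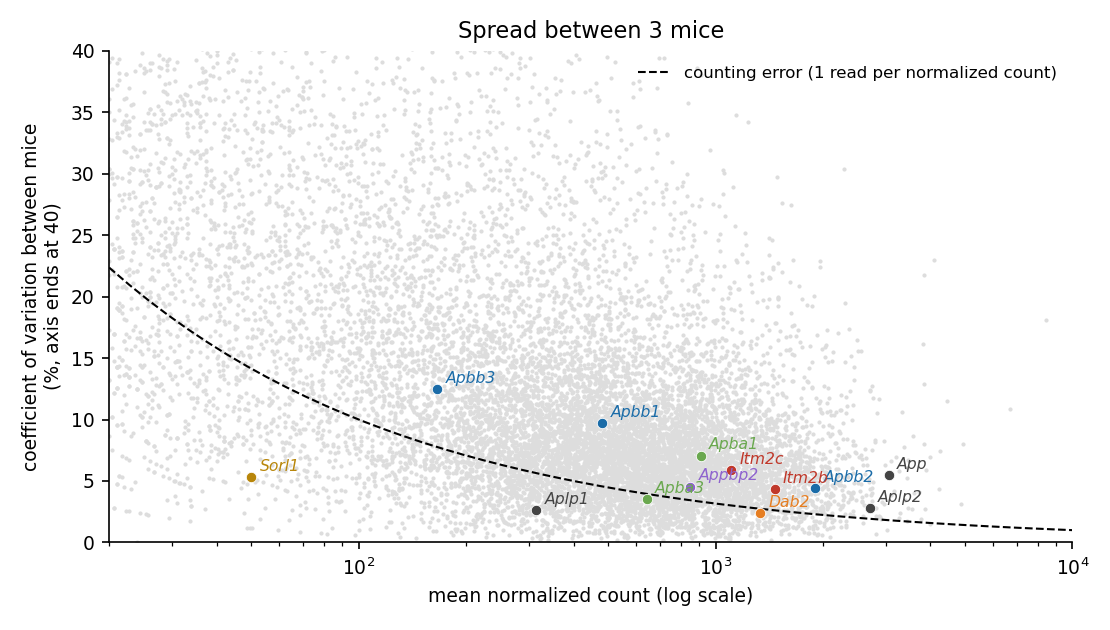
Coefficient of variation between the 3 mice against the mean normalized count (log scale) for listed genes (grey) and for the 13 named genes (coloured). Genes with the lowest means and values above 40% are not drawn. The dashed curve is the coefficient expected from counting of independent reads. Apbb3, at 12.5%, is the highest of the named genes and Sorl1 lies below the curve.

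The surroundings of these proteins were read from lists of genes with related roles. Among 12 other genes whose products bind the APP tail or its docking signal, or join it through an adaptor, 9 had a mean of at least 200. Of all listed genes, 53.2% did. Dab1 and Mapk8ip2 were not listed. A gene that is not listed lies below the floor of the table, in which the highest value of every gene is at least 4. Grb2, a signalling adaptor with SH2 and SH3 domains, was the highest of them with 435.8 ± 18.4 per kb, and Apba2 the lowest with 19.3 ± 5.0 (SD, n = 3).

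Of the 4 other genes of VPS10 receptors, 1 had a mean of at least 200, against 53.2% of all listed genes. It was Sort1, which encodes sortilin and had 58.4 ± 12.3 per kb with 342, 370 and 501 normalized counts. Sorcs1 had 0.794 ± 0.458 per kb and Sorcs3 was not listed. Of retromer, the coat with which SORL1 works, and its sorting nexins, 9 of 9 genes had a mean of at least 200 (53.2% of all listed genes), with levels from 234.8 ± 10.1 per kb for Vps26b to 335.5 ± 18.0 for Snx6. The 5 genes of GGA and PACS cargo adaptors ranged from 75.0 ± 1.9 for Gga2 to 278.9 ± 7.3 for Gga1.

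All 11 genes of clathrin, its AP-2 adaptor and endocytic partners of DAB2 had a mean of at least 200 (53.2% of all listed genes). Cltb, a clathrin light chain, was the highest with 429.3 ± 31.8 per kb, and Myo6, the motor that binds DAB2, the lowest with 100.1 ± 9.1.

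Of the genes of BRI processing, Adam10, a sheddase that cleaves BRI2, had 1733, 1814 and 1828 normalized counts and, with 385.2 per kb, the highest level of its list, and Sppl2b, an intramembrane protease, had the lowest with 113.9 ± 5.2. For kinesin-1, which carries APP vesicles, 4 of 7 genes had a mean of at least 200, near the 53.2% of all listed genes. Klc1 was the highest with 335.0 ± 19.7 per kb, and Klc3 was the lowest with 1.31 ± 1.64. The 4 partners of Appbp2 in the ubiquitin ligase reached from 111.2 ± 8.7 per kb for Cul2 to 429.5 ± 14.1 for Elob (SD, n = 3 for each).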

How the data were processed

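The labels call the 3 libraries biological replicates, and each was taken as 1 mouse. The authors trimmed reads with Trimmomatic 0.39, aligned them to mm39 (Ensembl) with STAR 2.7.11a, removed duplicates with Picard 3.1.1, discarded reads that mapped repeatedly or to ribosomal or mitochondrial sequence, counted exonic reads per gene with featureCounts 2.0.4 and normalized them with DESeq2 1.36.0. The deposited values are a score, namely normalized counts rounded to whole numbers, and not raw counts. They summed to 7149102, 7158585 and 7268785, which are not depths. The worth of 1 read (0.976, 1.06 and 0.961) was estimated from gaps and pile-ups among the rounded values. Counting error covers reads only and was taken as that of independent reads, without the limit of 1 read per start position.

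Transcript lengths were read from GENCODE for GRCm39, a later release than the one the authors used, and 17475 of 17583 identifiers (99.39%) had an entry. Of the windows of 72 bases in a canonical transcript, at most 1.03% (Appbp2) had an exact copy elsewhere in the genome, and at most 1.13% of canonical bases (Apbb2) were shared with a gene on the same strand. Log2 ratios were taken within each mouse after adding 0.5 and tested by an exact two-sided sign-flip permutation test over mice. The 10 genes are members by symbol, and the genes named from each list are its highest and lowest per kb and those not listed. One of the gene lists is not reported here. The members and lists were chosen with earlier results of these data known. Scripts were tested on simulated data and run with Python 3.11.15, numpy 2.4.6, pandas 2.3.3 and matplotlib 3.10.9.

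Alternatives were other lengths, other scalings, other pseudocounts, other minimum means, a correction for duplicate removal and leaving out each mouse. No protein sequences were used.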

Additional observations from a re-analysis of the deposited data

How the results depend on the processing

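Gene length was the choice that mattered most. Of 315 alternative values of the 35 log2 ratios, 8 turned, in 5 ratios. Rounded, 2 of the values came to 0.00 and were counted as not turned. They were Itm2b to App with App to its proximal 3′ end, and Apba1 to Aplp1 without mouse 3. Without length, the ratios to App turned to -1.06 (Itm2b) and -1.47 (Itm2c), that of Itm2b to Aplp2 to -0.89 and that of Apba3 to Apba1 to -0.50, and 0 members were above App and 0 above Aplp2. By the length of all exons, Itm2b to Aplp2 gave -0.63, Apba3 to Apba1 -0.03 and Itm2b to Itm2c -0.54, with 0 members above Aplp2. With App to its proximal 3′ end, added after seeing the data, Itm2c to App gave -0.80 and 1 member was above App. That member was Itm2b, with 801.5 per kb against 799.4 for App. The median level of the members, 180.4 per kb, was 123.2 by the length of all exons and 199.3 with the correction for 1 read per start position, and between 176.3 and 186.4 with a mouse left out. Pseudocounts of 1 and 5, shared bases and leaving out each mouse turned no ratio. Ratios within a mouse cannot change with the scaling, which was tried on levels and on the coefficient of variation. No member passed a coefficient of variation of 20% under the settings run. With 2 mice the smallest exact p is 0.5, and no paired analysis was possible because there is a single group. The transcript ends in use in these hearts were not tested.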
